A study of Mus musculus with 6 samples.

Results

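Glucose handling by the liver was followed through 39 genes of glucose and fructose entry, glycolysis, lactate formation, gluconeogenesis, glycogen turnover and the pentose phosphate pathway. They were picked by their GENCODE M21 symbols from the 54532 genes with an Ensembl identifier in the count table. Of the 39 genes, 38 had enough reads to be among the 12795 genes tested. The exception was Hkdc1, a hexokinase-related gene with 0 to 4 counts in any library. Liver RNA was sequenced from 2 groups of male wild-type C57BL/6J mice with 3 libraries each, named HFD replicates 1 to 3 and HFD+Allantoin-H replicates 4 to 6. Both groups started the high-fat diet (HFD) at 8 weeks of age by the methods of the study, stayed on it for 4 weeks and then for 4 further weeks. During those further weeks the HFD+Allantoin-H mice also had allantoin, an oxidation product of uric acid, in the drinking water at 0.3 mg/mL. The sample labels name this dose and a lower one without assigning either to a library, so the dose is the one the study's methods give for the Allantoin-H group. No library from chow-fed mice was analysed here, so each value below compares allantoin with no allantoin under a high-fat diet. The diet is itself a stress on liver glucose metabolism and is shared by both groups.

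The liver takes up glucose after a meal, splits it to pyruvate or stores it as glycogen, and makes glucose again from lactate, glycerol and amino acids during fasting. Most steps between glucose and pyruvate run in both directions with the same enzyme, and the direction is set at a few one-way steps that have separate enzymes for each way. The pentose phosphate pathway branches off at glucose 6-phosphate and yields NADPH and ribose phosphates. Messenger RNA levels are given here, and flux through these steps was not measured in these libraries.

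Libraries held 11326372 to 14601457 read counts. Values are normalized read counts (CPM, counts scaled to a common library total with edgeR's TMM factors). The factors were 0.756 to 0.951 in the HFD group against 1.12 to 1.19 with allantoin. Genes of the mitochondrial chromosome took 17.9% to 36.5% of the counts in the HFD group and 6.92% to 11.4% in the HFD+Allantoin-H group, and the part of this difference in the results below was not tested. With that chromosome left out, 8 members were called higher and 3 lower, as with it. The HFD libraries differed from one another. Replicate 3 had the highest sum of cholangiocyte markers, 159 CPM against 44.1 and 34.9 CPM in HFD replicates 1 and 2. Its erythroid markers summed to 332 CPM against 1338 and 1170 CPM, and the part of either difference in the results was not tested. Replicate 1 had the largest mitochondrial share and the lowest value of all 6 libraries in 19 of the 38 tested members. Replicate 2 held adipocyte transcripts, with Adipoq at 51.4 CPM and Plin1 at 49.2 CPM against 0 in the other HFD libraries and at most 0.0733 CPM in the HFD+Allantoin-H libraries. Of the 8 adipocyte markers 4 were tested and none was called, and Car3, which hepatocytes also express, gave most of the list's summed 3223 to 4255 CPM in the HFD group and 2522 to 3860 CPM with allantoin. Replicate 2 had the highest value of the 6 libraries in 9 members, and the part of the adipocyte transcripts in these was not tested. The shares of all tested genes that were lowest in replicate 1 or highest in replicate 2 are not given here, so neither count is read as particular to the members. Among the lists of cell type markers, 7 of 11 stellate cell genes and 3 of 11 Kupffer cell genes (Adgre1, Vsig4 and Cd5l) were called higher and none lower. The stellate list summed to 235 to 382 CPM in the HFD group against 494 to 576 CPM with allantoin, and the Kupffer list to 172 to 405 CPM against 428 to 469 CPM. Of 10 hepatocyte genes, 1 was called higher (Cps1) and 4 lower (Trf, Serpina1c, Apoa1 and Ttr), and every listed hepatocyte gene was detected. The part of these cell types in the results was not tested, and in bulk liver fewer cells of a type and less RNA per cell cannot be told apart.

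Of the 11 called members, 3 were among the 5 grouped as committed glycolysis and 3 among the 6 grouped as committed gluconeogenesis. These 6 rose, which was 60% and 50% of those small sets, beside 11.7% of all tested genes called higher. Members of these sets that were not called included Pck1 (log2 fold change -0.58) and G6pc (0.07). Of the 3 that fell, Aldoa and Gpi1 were grouped with the reversible steps. Gckr, a regulator of glucose phosphorylation, which is itself a one-way step, was grouped with glucose entry. Gbe1, of glycogen branching, and Fbp1, fructose bisphosphatase, had the largest called rises. By edgeR's quasi-likelihood test with Benjamini-Hochberg adjustment over all tested genes, 8 members rose (Gbe1, Fbp1, Pgam1, Pfkm, Pklr, Pfkl, Pcx and Slc37a4) and 3 fell (Aldoa, Gckr and Gpi1) at an adjusted p under 0.05. The 8 risers were 21.1% of the tested members beside 11.7% of all tested genes called higher. The 3 fallers were 7.89% beside 13% of all tested genes called lower. Together 28.9% of the members were called, near the 24.7% of all tested genes. The median log2 fold change of the members was 0.23, and that of all tested genes was -0.03. The members' median was 0.13 without HFD replicate 1 and 0.48 without HFD replicate 2. Leaving out HFD+Allantoin-H replicate 6 gave 0.15. HFD and HFD+Allantoin-H values did not overlap for 19 of the 38 members, beside 44.3% of all tested genes. Of these, 15 were higher with allantoin, where 22.4% of all tested genes were, and 4 were lower, where 21.9% were.

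The number of called members fell from 11 to 4 or fewer when any 1 of the HFD+Allantoin-H libraries was left out. Without HFD+Allantoin-H replicate 4 only 1 member was called higher and 2 lower. The counts were 2 higher and 1 lower without replicate 5, and 2 of each without replicate 6. Over the whole table the share of genes called also dropped then, from 24.7% to 11.4%, 9.49% and 12.2% without replicates 4, 5 and 6. Without HFD replicate 1 there were 7 higher and 3 lower calls, without HFD replicate 2 there were 8 and 3, and without HFD replicate 3 there were 9 and 3. The direction of calls also leaned on the scaling between libraries. With plain library sizes the median of all tested genes moved from -0.03 to 0.38, the median of the members to 0.63, and 15 members were called higher and 0 lower. None of the 11 called members changed sign under any of the 16 alternatives tried.

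**Figure D1:**
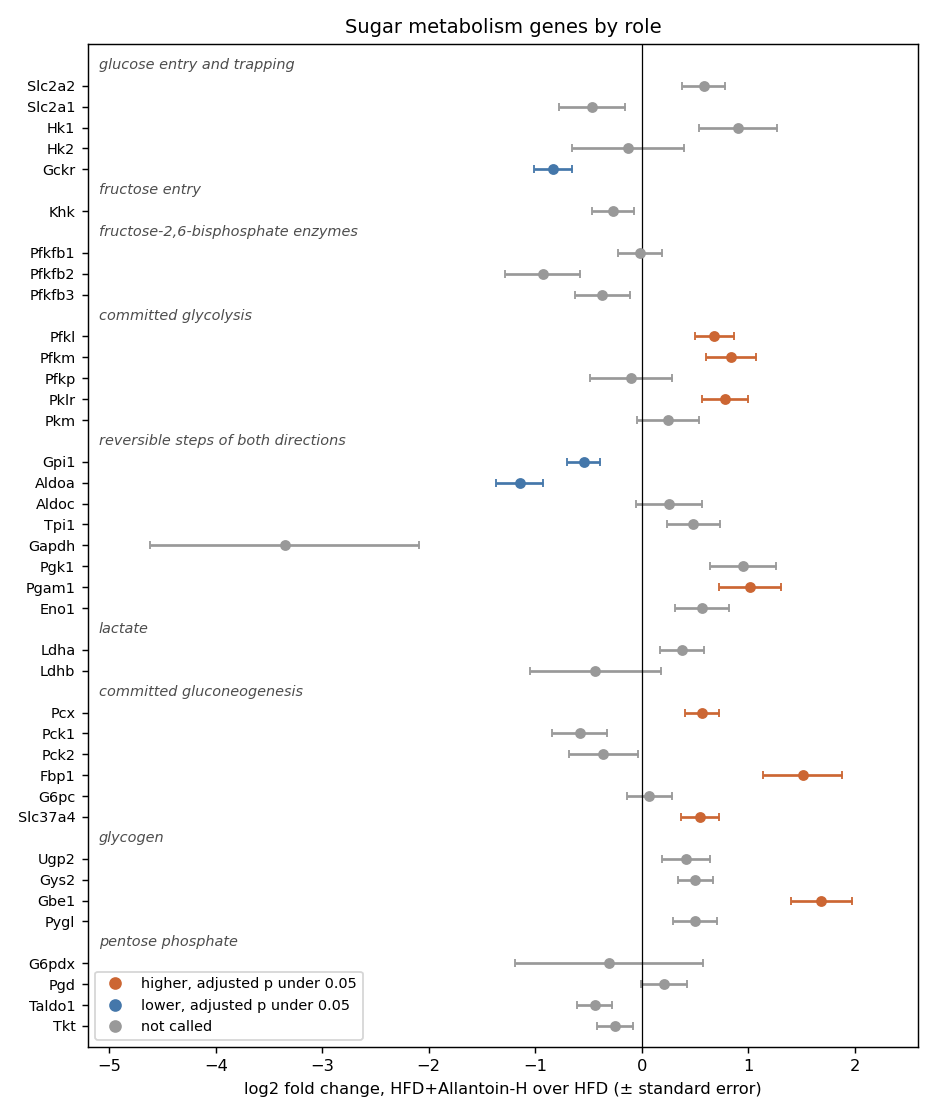
Log2 fold change of each tested member, HFD+Allantoin-H over HFD, with bars of 1 standard error from edgeR's quasi-likelihood fit (3 libraries per group). Genes are grouped by role and coloured by call. Of the 38 genes, 21 lie above 0 and 17 below, Gbe1 (1.69) and Fbp1 (1.51) lie farthest right, and Gapdh (-3.35) has the widest bar.

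Glucose enters and leaves hepatocytes through Slc2a2 (GLUT2). Slc2a2 stood at 179, 165 and 254 CPM in HFD replicates 1 to 3 and at 286, 270.3 and 340.1 CPM in HFD+Allantoin-H replicates 4 to 6. The groups did not overlap, yet the log2 fold change of 0.58 ± 0.20 (SE) did not pass the test (adjusted p = 0.0577, edgeR). It passed in 6 of the 16 alternatives. Slc2a1 (GLUT1), the transporter of most other cell types, had overlapping groups with a mean of 11.7 CPM and 8.49 CPM (log2 fold change -0.47, adjusted p = 0.297, edgeR). Per kilobase of exon, Slc2a1 made up 8.81% of the reads of both transporters in the HFD libraries and 4.55% in the HFD+Allantoin-H libraries. Every HFD+Allantoin-H share was below every HFD share (exact permutation test, two-sided, p = 0.1, the smallest that 3 against 3 libraries allow, and adjusted p = 0.317 over the 19 shares and ratios computed). Without HFD replicate 2, which held the adipocyte transcripts and the highest share of 11.7%, the difference was -2.82 percentage points in place of -4.26.

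The clearest change at the point of glucose trapping was in Gckr, a regulatory protein of glucose phosphorylation in hepatocytes. Gckr (ENSMUSG00000059434, chr5:31297443-31327314, GRCm38) stood at 219, 158 and 158 CPM in HFD replicates 1 to 3 and at 103, 92.5 and 105 CPM in HFD+Allantoin-H replicates 4 to 6. All 3 treated libraries lay below all 3 controls, and the mean of 178 CPM stood against 100.1 CPM. Gckr fell by 0.83 on the log2 scale (SE 0.18, adjusted p = 0.00971, edgeR), which is 1.78-fold. The call was lost without replicate 5 (-0.77, adjusted p = 0.0627, edgeR) and with plain library sizes (-0.39, adjusted p = 0.146, edgeR).

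The hexokinases with high affinity for glucose, Hk1 and Hk2, were low in these livers. Per kilobase of exon they averaged 0.39 and 0.335 CPM over the group means, next to 512 for Pck1. Hk1 was at 1.51 to 3.06 CPM in the HFD group and 3.81 to 4.86 CPM with allantoin, without overlap and without a call (log2 fold change 0.90, adjusted p = 0.0942, edgeR). Hk2 was at 3.85 CPM in HFD replicate 2 and at 0.983 to 2.23 CPM in all other libraries. Its log2 fold change moved from -0.13 to 0.65 when that replicate was left out, and neither value passed the test. The share of Hk1 among the hexokinase reads per kilobase was 43.8% ± 8.69 (SD, n = 3) in the HFD group and 60.1% ± 3.17 with allantoin, again without overlap (exact permutation p = 0.1, adjusted p = 0.317). Khk, the ketohexokinase that traps fructose, was among the most abundant members per kilobase and had overlapping groups, at 427 ± 78.6 CPM (SD, n = 3) and 354 ± 56.6 CPM.

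Phosphofructokinase, the first step that commits sugar to glycolysis, was higher for both of the isoforms that made up most of its reads. Pfkl, the liver type (ENSMUSG00000020277, chr10:77986947-78010083), stood at 16.0, 21.9 and 23.2 CPM in HFD replicates 1 to 3 and at 34.8, 31.3 and 32.2 CPM in HFD+Allantoin-H replicates 4 to 6. Pfkm, the muscle type (ENSMUSG00000033065, chr15:98092589-98132451), stood at 5.02, 7.51 and 6.10 CPM against 12.02, 10.9 and 10.5 CPM. In both genes every treated library exceeded every control. Pfkl rose 1.60-fold (log2 0.68 ± 0.18 SE, adjusted p = 0.0241, edgeR). Pfkm rose 1.79-fold (log2 0.84 ± 0.24 SE, adjusted p = 0.0288, edgeR). Leaving out replicate 4, 5 or 6 took the adjusted p to 0.0974, 0.0763 and 0.0755 for Pfkl and to 0.113, 0.0955 and 0.0755 for Pfkm. Pfkm was also just over the threshold without HFD replicate 1 (0.71, adjusted p = 0.0506, edgeR). It shares 341 exon bases with Gm26513 on the same strand, and reads of the pair cannot be told apart there.

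Pfkp, the platelet type, was the rarest isoform. Its groups overlapped at 2.51 to 3.46 CPM and 1.75 to 3.61 CPM. As a share of phosphofructokinase reads per kilobase, Pfkp was 4.33% ± 0.332 (SD, n = 3) in the HFD libraries and 2.44% ± 0.829 with allantoin (no overlap, exact permutation p = 0.1, adjusted p = 0.317). Pfkl kept the largest share, at 59.5% ± 3.20 and 58.1% ± 1.34, with overlapping groups. Fructose 2,6-bisphosphate, the activator of this step, is made and removed by the Pfkfb enzymes, and the 3 of them among the 39 genes had log2 fold changes below 0 that did not pass, with Pfkfb1 and Pfkfb3 above 0 under plain library sizes. Pfkfb1, the liver form, was level at 32.5 and 32.2 CPM. Pfkfb2 was at 14.5, 11.3 and 5.35 CPM in the HFD libraries and at 6.30, 4.97 and 4.99 CPM with allantoin (log2 -0.93, adjusted p = 0.076, edgeR). HFD replicate 3 was the low control, and without it the log2 fold change was -1.25 (adjusted p = 0.00673, edgeR). On the same strand, 1262 exon bases of Pfkfb2 are shared with Gm29427, and reads of the pair cannot be told apart there. Pfkfb3 had means of 14.8 and 11.5 CPM, with a log2 fold change of -0.37.

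At the end of glycolysis, Pklr, the pyruvate kinase of liver and red cells (ENSMUSG00000041237, chr3:89136142-89146784), was at 44.8, 51.8 and 57.2 CPM in the HFD libraries and at 93.7, 62.5 and 108 CPM with allantoin. Replicate 5 sat close to the highest control, while replicates 4 and 6 sat well above. Pklr rose 1.72-fold (log2 0.78 ± 0.22 SE, adjusted p = 0.026, edgeR). The call was lost without HFD replicate 1 (adjusted p = 0.0691), HFD replicate 2 (0.0573), replicate 4 (0.0938) or replicate 6 (0.114). Some 711 exon bases of Pklr lie opposite to Hcn3, and whether counting used the strand is not given in the sources used here. Pkm, the pyruvate kinase of most other tissues, was at 28.5 CPM in HFD replicate 2 and at 12.9 and 14.7 CPM in the other controls, against 19.0 to 25.7 CPM with allantoin. Its log2 fold change of 0.25 became 0.69 without that replicate (adjusted p = 0.0462, edgeR). The share of Pkm in pyruvate kinase reads per kilobase was 26.3% in HFD replicate 2 and 13.2% to 16.4% in the other 5 libraries. Some 767 exon bases of Pkm are shared with Gm49759 on the same strand, where reads of the pair cannot be told apart.

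**Figure D2:**
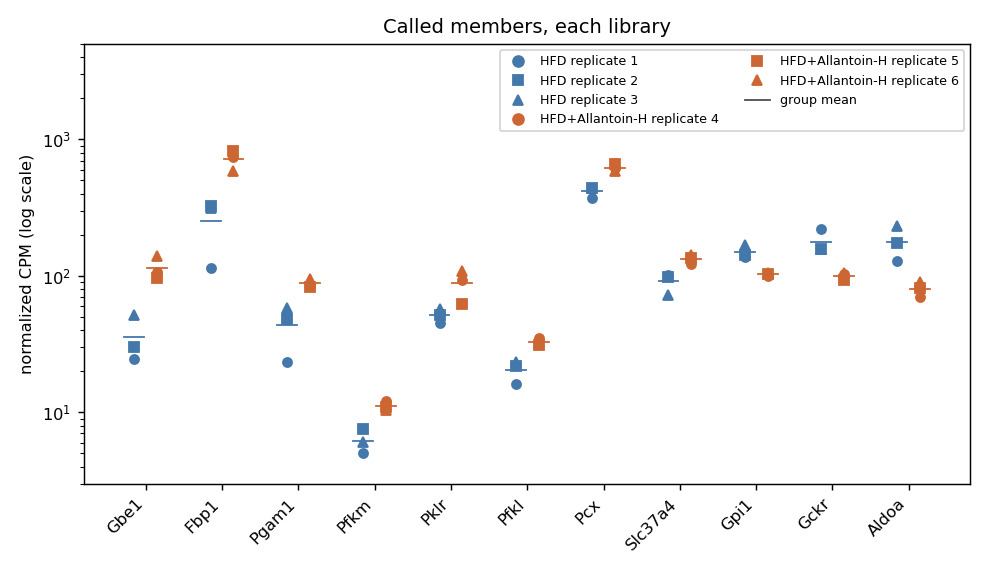
Normalized CPM of the 11 called members in each library on a log axis, with circles, squares and triangles for the 3 libraries of a group and lines for group means. The groups do not overlap in any of the 11 genes, which holds for 44.3% of all tested genes in either direction. The first 8 genes are higher with allantoin and the last 3 lower.

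Of the reversible steps between the hexose phosphates and enolpyruvate, 2 genes that act before or at the split of the sugar into trioses fell and 1 gene after it rose. Gpi1, glucose 6-phosphate isomerase (ENSMUSG00000036427, chr7:34201330-34230336), was at 138, 143 and 167 CPM in the HFD libraries and at 100.3, 103 and 105 CPM with allantoin. Aldoa, aldolase A (ENSMUSG00000030695, chr7:126795234-126800751), was at 129, 173 and 231 CPM against 69.5, 81.6 and 89.7 CPM. All treated libraries were below all controls for both genes. Gpi1 fell by 0.54 on the log2 scale (SE 0.15, adjusted p = 0.0289, edgeR) and Aldoa by 1.15 (SE 0.22, adjusted p = 0.0063, edgeR). Gpi1 was no longer called without HFD replicate 3 (adjusted p = 0.0508) or without replicate 4, 5 or 6 (0.121, 0.116 and 0.089). Gpi1 also lost it with plain library sizes (-0.14, adjusted p = 0.654, edgeR) and with no filter on low counts (-0.50, adjusted p = 0.0644, edgeR), and 741 of its exon bases lie opposite to Gm26762. Aldoa lost its call with plain library sizes alone (-0.77, adjusted p = 0.0578, edgeR). Aldoc, the brain type, was at 4.48 and 5.37 CPM on average. The share of Aldoa in the reads per kilobase of Aldoa and Aldoc went from 97.7% ± 0.388 (SD, n = 3) to 94.4% ± 1.38 without overlap (exact permutation p = 0.1, adjusted p = 0.317).

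After the split, Pgam1 passed the test, and 3 of its neighbours had higher values in every treated library. Pgam1, phosphoglycerate mutase (ENSMUSG00000011752, chr19:41911923-41918660), was at 23.4, 48.3 and 58.4 CPM in the HFD libraries and at 85.1, 83.3 and 95.4 CPM with allantoin. It rose 2.03-fold (log2 1.02 ± 0.29 SE, adjusted p = 0.0326, edgeR). The call was lost without HFD replicate 2 (adjusted p = 0.0579) and without replicate 4, 5 or 6 (0.0812, 0.0853 and 0.1). Pgk1, phosphoglycerate kinase, was at 61.9, 157 and 154 CPM against 251, 225 and 248 CPM. Its log2 fold change of 0.95 just missed the threshold (adjusted p = 0.0546, edgeR). Without HFD replicate 1 the change was smaller, 0.63, and passed (adjusted p = 0.0169, edgeR). Tpi1, triosephosphate isomerase, was at 135, 261 and 274 CPM against 325, 306 and 307 CPM (log2 0.48, adjusted p = 0.179, edgeR). Eno1, enolase, was at 195, 393 and 372 CPM against 499, 419 and 504 CPM (log2 0.57, adjusted p = 0.125, edgeR). Without HFD replicate 1 these log2 fold changes were 0.22 for Tpi1 and 0.31 for Eno1. In Pgam1, Pgk1, Tpi1 and Eno1 HFD replicate 1 was the lowest library, at 39.7% of the mean of HFD replicates 2 and 3 for Pgk1, 43.8% for Pgam1, 50.4% for Tpi1 and 50.9% for Eno1. Aldoa, too, was lowest among the controls in that replicate.

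Ldha, the lactate dehydrogenase subunit of liver and muscle, followed the same order, with 549, 881 and 865 CPM in the HFD libraries and 1032, 995 and 959 CPM with allantoin. The groups did not overlap, but the log2 fold change of 0.38 ± 0.20 did not pass (adjusted p = 0.2, edgeR) and was 0.19 without HFD replicate 1. Ldhb, the heart subunit, was at 5.43 CPM in HFD replicate 2 and at 1.09 to 2.71 CPM elsewhere. Its log2 fold change was -0.44 with that replicate and 0.60 without it, and neither passed.

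**Figure D3:**
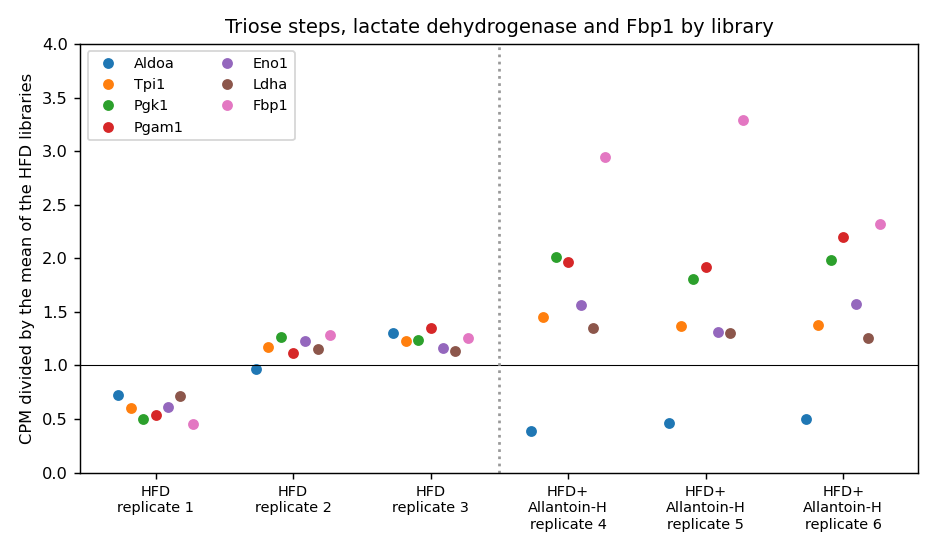
CPM of 7 members in each library divided by the gene's mean over the 3 HFD libraries. Pgk1, Pgam1, Tpi1, Eno1, Ldha and Fbp1 are lowest in HFD replicate 1 and higher with allantoin than in all controls, while Aldoa lies below every HFD library in all treated ones.

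Gapdh, the glyceraldehyde 3-phosphate dehydrogenase often used as a reference gene, had the widest standard error of the members. It was at 30.2, 232 and 283 CPM in the HFD libraries and at 3.01, 19.5 and 30.8 CPM with allantoin. HFD replicate 1 fell within the treated range, so the groups overlapped. The log2 fold change of -3.35 had an SE of 1.26 and did not pass (adjusted p = 0.129, edgeR), although it passed with DESeq2 (adjusted p = 0.0145) and limma-voom (adjusted p = 0.0384). Gapdh has 127 near-identical copies in the annotation (at least 95% identity over at least 200 bases), of which 89 had counts. The first 90 coding bases show how little separates them. Those of Gm7336 (chr7:51746647-51747878) and Gm5559 (chr5:95861714-95862715) equal those of Gapdh (chr6:125161715-125166467, minus strand, GRCm38), and Gm3839 (chr14:11280735-11356726) differs at 2 bases, shown in capitals.
Gapdh: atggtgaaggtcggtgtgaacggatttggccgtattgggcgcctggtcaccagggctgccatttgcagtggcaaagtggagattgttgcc
Gm3839: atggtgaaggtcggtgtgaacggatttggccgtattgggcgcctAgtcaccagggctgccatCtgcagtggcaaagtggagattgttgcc

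Raw counts of Gapdh itself were 277, 2354 and 3383 in the HFD libraries and 41, 330 and 457 with allantoin. The copies summed to 689, 760 and 760 counts against 582, 857 and 753. Raw counts of the copies thus varied less than those of Gapdh, but raw counts are not scaled between libraries. A raw count of 3 equals 0.251 to 0.328 CPM in the HFD libraries and 0.177 to 0.220 CPM with allantoin. On the CPM scale the summed copies were therefore also lower in every treated library than in every HFD library. The copies took 18.3% of the combined counts in HFD replicate 3 and 93.4% in HFD+Allantoin-H replicate 4. With copies and Gapdh summed, the log2 fold change was -1.94 ± 0.46 SE and passed (adjusted p = 0.0244, edgeR). How reads with several equal matches were assigned is not given in the sources used here, so the size of the Gapdh difference is uncertain. For each other member with such copies, they held at most 3.05% of the combined counts in any library.

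**Figure D4:**
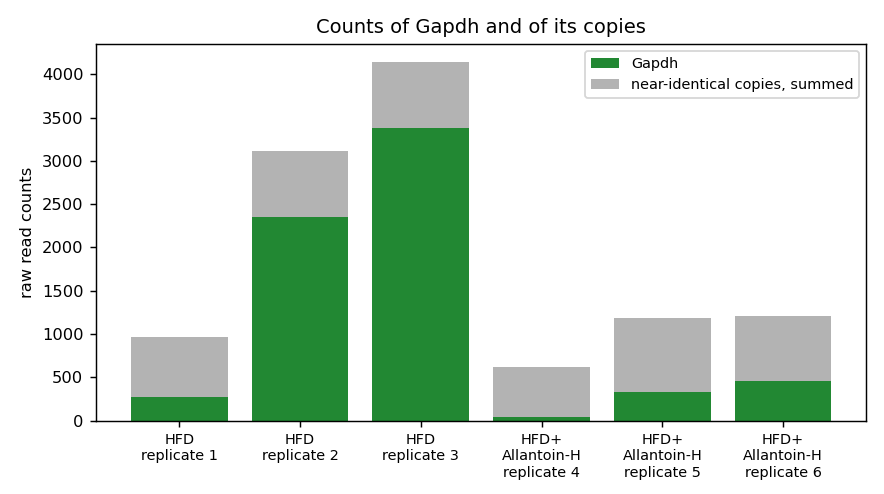
Raw read counts of Gapdh and of its 127 near-identical copies in each library, stacked and not scaled between libraries. The copies hold 582 to 857 counts in every library, whereas Gapdh itself ranges from 41 counts in HFD+Allantoin-H replicate 4 to 3383 in HFD replicate 3.

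Among the one-way genes of gluconeogenesis, 3 of 6 rose, and Pck1, the most abundant of them per kilobase, had lower values on average. Fbp1, fructose 1,6-bisphosphatase (ENSMUSG00000069805, chr13:62864753-62888282), opposes phosphofructokinase. It was at 114, 323 and 315 CPM in the HFD libraries and at 738, 826 and 582 CPM with allantoin. The lowest treated library, replicate 6, was still well above the highest control. Fbp1 rose 2.85-fold (log2 1.51 ± 0.37 SE, adjusted p = 0.0217, edgeR). HFD replicate 1 held 35.8% of the mean of the other controls, and without it the log2 fold change was 1.16 (adjusted p = 0.00384, edgeR). The adjusted p was 0.0658 without replicate 4 and 0.0785 without replicate 5. Pcx, the pyruvate carboxylase that starts the pathway in mitochondria (ENSMUSG00000024892, chr19:4510472-4621752), was at 371, 444 and 441 CPM against 613, 665 and 583 CPM. It rose 1.48-fold (log2 0.57 ± 0.16 SE, adjusted p = 0.0298, edgeR). Its adjusted p was 0.0969, 0.125 and 0.0669 without replicates 4, 5 and 6.

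Pck1, the cytosolic phosphoenolpyruvate carboxykinase, was at 2456, 2218 and 1637 CPM in the HFD libraries and at 1774, 1518 and 926 CPM with allantoin. The groups overlapped between HFD replicate 3 and HFD+Allantoin-H replicate 4, and the log2 fold change of -0.58 ± 0.26 did not pass (adjusted p = 0.125, edgeR). Pck2, the mitochondrial form, had means of 6.54 and 5.08 CPM with overlapping groups. At the last step, Slc37a4, the transporter that brings glucose 6-phosphate into the endoplasmic reticulum (ENSMUSG00000032114, chr9:44396852-44402968), was at 102, 98.7 and 72.2 CPM against 122, 135 and 142 CPM. It rose 1.47-fold (log2 0.55 ± 0.18 SE, adjusted p = 0.0468, edgeR), the nearest to the threshold among the called members. It was lost with upper-quartile scaling (adjusted p = 0.0577) and without HFD replicate 2 (0.0624), HFD replicate 3 (0.0825) or replicate 4, 5 or 6 (0.0968, 0.141 and 0.146). G6pc, the phosphatase that acts with it, was level at 86.3 ± 23.5 CPM (SD, n = 3) and 90.8 ± 9.71 CPM.

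Ratios within a library do not depend on the scaling between libraries. The log2 ratio of Pfkl to Fbp1, per kilobase, was -4.80, -5.85 and -5.73 in the HFD libraries and -6.38, -6.69 and -6.15 with allantoin. Although both genes rose, the balance thus lay further towards Fbp1 in every treated library, by -0.94 on average and by -0.61 without HFD replicate 1. The log2 ratio of Pklr to Pck1 was -5.69, -5.34 and -4.76 against -4.16, -4.52 and -3.01. It was higher in every treated library, by 1.37 on average. These ratios did not overlap between groups (exact permutation p = 0.1 for each, adjusted p = 0.317). The ratio of Gys2 to Pygl differed by -0.02 and that of Slc2a2 to G6pc by 0.50, with overlapping groups (exact permutation p = 1 and 0.2).

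**Figure D5:**
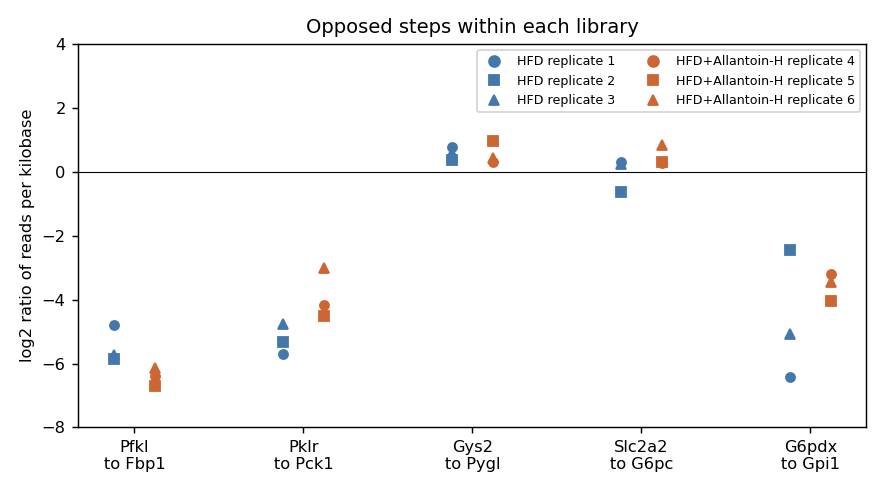
Log2 ratio of reads per kilobase of exon for 5 pairs of opposed or branching steps, 1 point per library. The pairs Pfkl to Fbp1 and Pklr to Pck1 separate the groups, in opposite directions, and the other 3 pairs overlap.

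All 4 glycogen genes had log2 fold changes above 0, and only the branching enzyme passed the test. Gbe1, which adds the side branches of glycogen (ENSMUSG00000022707, chr16:70313949-70569716), was at 24.6, 29.9 and 51.9 CPM in the HFD libraries and at 107, 96.3 and 140.4 CPM with allantoin. Every treated library was above every control. Gbe1 rose 3.22-fold (log2 1.69 ± 0.28 SE, adjusted p = 0.00393, edgeR). This was the one called member that kept its call in all 16 alternatives, with log2 fold changes from 1.48 to 2.08. Gys2, the liver glycogen synthase, was at 112, 133 and 109.8 CPM against 149, 189 and 164 CPM. The groups did not overlap, and the log2 fold change of 0.51 ± 0.17 lay at the threshold (adjusted p = 0.0506, edgeR). It passed in 7 of the 16 alternatives. Pygl, the liver phosphorylase that releases glucose from glycogen, had means of 208 and 294 CPM (log2 0.50, adjusted p = 0.0965, edgeR). Without HFD replicate 2, its highest control, the log2 fold change was 0.72 (adjusted p = 0.03, edgeR). Ugp2, which makes the UDP-glucose donor, was at 242 to 378 CPM in the HFD group and 331 to 501 CPM with allantoin (log2 0.42, adjusted p = 0.197, edgeR).

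None of the 4 pentose phosphate genes passed with edgeR, where 1 (Taldo1) had an unadjusted p under 0.05, and that gene passed with DESeq2 (adjusted p = 0.0442). G6pdx, the glucose 6-phosphate dehydrogenase that opens the pathway, was at 0.764, 12.6 and 2.34 CPM in the HFD libraries and at 5.20, 2.96 and 4.59 CPM with allantoin. HFD replicate 2 was 5.40-fold above the next control. The log2 fold change was -0.31 with that replicate and 1.41 without it (adjusted p = 0.834 and 0.085, edgeR). HFD replicate 1 had only 7 counts, and 418 exon bases lie opposite to Ikbkg. Pgd, the second oxidative enzyme, had means of 17.6 and 20.4 CPM. In the non-oxidative branch, Taldo1 (transaldolase) was at 142, 155 and 139 CPM against 104, 95.4 and 121 CPM. Every treated library was lower, without a call (log2 -0.44 ± 0.16 SE, adjusted p = 0.0676, edgeR). Tkt (transketolase) overlapped, at 84.1 to 109.6 CPM and 73.1 to 88.8 CPM.

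Levels of different genes can be compared only per kilobase of exon, here with all annotated exons of a gene merged. On that scale Pck1 led in the HFD group with 613 CPM per kilobase, followed by Khk (237), Ldha (231) and Fbp1 (147). With allantoin, Fbp1 (420.3) and Pck1 (410.03) were close, followed by Ldha (301). Phosphofructokinase, by contrast, was among the least abundant steps, with Pfkl at 3.06 and 4.91 CPM per kilobase.

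Promoters are printed for the called members with the smallest p in each direction, Gbe1 and Fbp1 among those that rose and Aldoa and Gckr among those that fell. Each line gives the 250 bases before the RefSeq transcription start (GRCm38.p6), read on the strand of the gene. The coordinates are chr16:70313699-70313948 on the plus strand for Gbe1, chr13:62888283-62888532 on the minus strand for Fbp1, chr7:126800448-126800697 on the minus strand for Aldoa (the first of 3 listed starts) and chr5:31297313-31297562 on the plus strand for Gckr. Capitals mark the GC box GGGCGG.
Gbe1: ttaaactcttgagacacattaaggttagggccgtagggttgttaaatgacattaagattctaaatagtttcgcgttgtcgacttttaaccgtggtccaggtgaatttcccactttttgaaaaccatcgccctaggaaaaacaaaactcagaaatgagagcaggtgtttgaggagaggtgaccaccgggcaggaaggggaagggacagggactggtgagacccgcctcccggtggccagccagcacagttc
Fbp1: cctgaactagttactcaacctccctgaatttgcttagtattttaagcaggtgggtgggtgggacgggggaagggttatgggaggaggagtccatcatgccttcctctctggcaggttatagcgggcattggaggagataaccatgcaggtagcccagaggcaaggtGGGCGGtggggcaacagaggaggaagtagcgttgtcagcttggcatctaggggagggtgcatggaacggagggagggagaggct
Aldoa: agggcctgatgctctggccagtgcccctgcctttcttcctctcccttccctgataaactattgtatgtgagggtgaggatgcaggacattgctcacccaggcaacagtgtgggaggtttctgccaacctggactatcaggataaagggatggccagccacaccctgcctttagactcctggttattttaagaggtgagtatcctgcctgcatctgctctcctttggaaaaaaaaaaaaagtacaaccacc
Gckr: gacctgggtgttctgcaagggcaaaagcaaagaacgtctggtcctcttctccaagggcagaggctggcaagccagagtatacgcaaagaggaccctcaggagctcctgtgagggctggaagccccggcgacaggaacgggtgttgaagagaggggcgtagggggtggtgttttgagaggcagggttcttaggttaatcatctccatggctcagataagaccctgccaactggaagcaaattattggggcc

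A search of both strands from 250 bases before to 50 after the start covered 38 members, since Gys2 had no entry, and 32851 promoters in all. Only the first listed start of each member was used, and 15 members had more than 1. The 32851 promoters count every listed start, whether or not the gene was tested here, so the 2 percentages given for each motif come from unlike sets. The GC box was in 27 members (71.1%) and in 35.7% of all promoters. It was in 6 of the 8 promoters of genes that rose (Fbp1, Gbe1, Pcx, Pfkl, Pgam1 and Slc37a4) and in 1 of the 3 of genes that fell (Gpi1). Its place in Gbe1 is after the start, outside the printed stretch. The hypoxia core ACGTG was in 15 members (39.5%) and 19.6% of all promoters, the E-box CACGTG, which contains that core, in 5 (13.2%) and 7.15%, and the cAMP response core TGACGT, which can overlap it, in 6 (15.8%) and 7.51%. The nuclear receptor element AGGTCA was in 8 members (21.1%) and 16.3% of all promoters, TATAAA in 2 (5.26%) and 13.6%, and the forkhead motif TGTTTAC in 0 and 3.65%. None of the 3 promoters of genes that fell held any motif but the GC box in this window. A match is a string of letters and not evidence of binding.

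Other genes of sugar metabolism were taken from 5 lists with 76 tested genes, of which 11 were called higher and 7 lower. That was 23.7% in all, near the 24.7% of all tested genes (11.7% higher and 13% lower). Regulators of transcription and hormone response had 3 higher and 3 lower of 24. The 3 with the smallest p all fell. Cebpb, a transcription factor of gluconeogenic and acute-phase genes, was at 242 to 272 CPM in the HFD group and 87.6 to 119.9 CPM with allantoin (log2 -1.30, adjusted p = 0.00185, edgeR). Mlxipl (ChREBP), the carbohydrate-responsive factor that acts on Pklr and other genes, was at 475, 187 and 261 CPM against 88.5, 82.2 and 67.9 CPM. It fell by 1.95 on the log2 scale (adjusted p = 0.00402, edgeR), while Pklr rose in the same libraries. Gcgr, the glucagon receptor, fell by 0.91 (adjusted p = 0.0163, edgeR). The 3 called higher, also named after their values were seen, were Srebf1 (0.64), Nr3c1 (0.60) and Ppargc1a (1.0).

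The glycogen regulators had 3 of 14 tested genes higher. Stbd1, a glycogen-binding protein, rose by 1.01 (adjusted p = 0.00729, edgeR). Epm2a (laforin), a glycogen phosphatase, rose by 1.46 (adjusted p = 0.0494, edgeR). Of 15 other tested sugar enzymes, 3 were higher and 4 lower, and the median of their log2 fold changes was -0.42. Galt, an enzyme of galactose use, fell by 1.09 on the log2 scale (adjusted p = 0.00328, edgeR), and Eno3, the muscle enolase, fell by 1.79 (adjusted p = 0.0088, edgeR). Called genes of that list named after their values were seen were G6pc3 (-1.51), Sord (0.73), Pgm1 (0.66) and Galk1 (0.60). Pyruvate, lactate and glycerol supply had 2 of 15 higher, Ldhd (0.77, adjusted p = 0.0124, edgeR) and Mdh1 (0.75, adjusted p = 0.0476, edgeR). Of the 8 tested pentose phosphate partners 0 passed with edgeR, DESeq2 or limma-voom, and 1 had an unadjusted p under 0.05 with each. Their median log2 fold change was 0.12.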

How the data were processed

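RNA sequencing of liver gave 3 libraries for HFD and 3 for HFD+Allantoin-H, as the sample labels group them. The authors deposited raw, unnormalized gene counts, which they derived from filtered Illumina reads. The submitters' processing notes name GRCm38 (mm10), and the aligner, the counting tool and its strand setting are not given in the sources used here. Features with no Ensembl number (429, holding 0.197% to 0.306% of the counts) were left out. Symbols and positions came from GENCODE M21 (GRCm38). Aldoa has 2 identifiers there, and the one with more counts was used. Of the listed symbols, 1 (Gyk) was not found.

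The edgeR 4.0.16 quasi-likelihood test (R 4.3.3) used filterByExpr, TMM, the group as the only term and Benjamini-Hochberg adjustment over 12795 genes, at a threshold of 0.05. Standard errors came from the F statistic. Libraries carry separate replicate labels, no source says how many mice each holds, and p-values measure only the spread between these libraries. The study names no test for its counts. Shares and ratios within a library used exact permutation tests. Copies were searched with BLAST 2.17.0, and promoters came from RefSeq tables. The procedure was tested on simulated data.

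The 39 genes and all lists were chosen with earlier results of these data known. All 39 were described, with every library's value for called members, and at most 3 called genes per other list, those with the smallest p. The cell markers were named after their values were seen, and some genes of the other lists are counted but not reported here. Alternatives comprised scaling by RLE, by upper quartile and by library size only, DESeq2 1.42.0, limma-voom (limma 3.58.1), no filter on low counts, a minimum of 10 counts per library, removal of length and GC trends, omission of the mitochondrial chromosome, copies summed and omission of each library.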

Additional observations from a re-analysis of the deposited data

How the results depend on the processing

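No paired analysis was possible because the groups share no replicate numbers (1 to 3 and 4 to 6). Members called higher numbered 8, with 15 under plain library sizes, 14 without a filter on low counts and 1 to 9 when 1 library was left out. Members called lower numbered 3, with 0 under plain library sizes, 5 with DESeq2 and 1 to 3 when 1 library was left out. Genes of the other lists called higher numbered 11, with 30 under plain library sizes, 19 without a filter and 2 to 21 when 1 library was left out. The difference in the share of Pfkp was -4.17 percentage points with plain counts in place of -1.89 per kilobase. Only members that were not called changed sign. Under plain library sizes the log2 fold change was 0.26 for Hk2, 0.13 for Khk, 0.43 for Pfkfb1, 0.014 for Pfkfb3, 0.31 for Pfkp, 0.070 for Pck2, 0.066 for G6pdx and 0.16 for Tkt. With limma-voom it was 0.076 for Hk2, 0.027 for Pfkfb1 and 0.46 for G6pdx. Pfkfb1 was at 0.030 without a filter and Khk at 0.050 after removal of length and GC trends. Leaving out 1 library at a time gave ranges of -0.45 to 0.65 for Hk2, -0.19 to 0.19 for Pfkfb1, -0.34 to 0.14 for Pfkp, -0.82 to 0.60 for Ldhb, -0.81 to 1.41 for G6pdx and -0.12 to 0.26 for G6pc. The highest values of Hk2, Ldhb and G6pdx came without HFD replicate 2 and the lowest of G6pc without HFD replicate 1. The cause of these moves was not tested. G6pdx had 7 to 128 counts and Hk2 9 to 39, both with the highest value in HFD replicate 2. Differences in the rarest members were not resolved with 3 libraries per group, and the part of read depth in this was not tested.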
